A study of Rattus norvegicus with 12 samples.

Results

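Empty liposomes (Lipo) and saline (Saline) were both injected into injured knees of Sprague Dawley rats, and the chondrocytes of the 2 groups were compared gene by gene. The comparison set the 3 Lipo against the 3 Saline libraries, 6 of the 12 libraries of the series, chosen by their sample names. The other 6 came from uninvolved knees and from injured knees given liposomes loaded with the A2AR agonist CGS21680 (Lipo-CGS). They also entered the filter and the fit, where they shared in the estimate of the spread between libraries. In both groups the anterior cruciate ligament of male rats had been ruptured by tibial compression, a model of post-traumatic osteoarthritis, and the injections into the joint began once the disease was established and were repeated over several weeks. No active agent was given in either group, so the treatments differ in the vehicle: the liposomes were lipid vesicles, while saline held no lipid. No batch or date is given for the libraries, so the vehicle cannot be told apart from differences in handling between the groups. The knee cartilage of 3 animals was combined for each library. Cells were released with enzymes, cultured and trypsinized before RNA was taken, so the values describe cultured cells and not cartilage in place. The study's methods give fewer rats per group than 3 libraries of 3 separate rats each would need, and the labels do not say which libraries share animals. Every p-value here takes the libraries as independent and measures the spread between them, which may be technical in part.

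Chondrocytes are the only cell type of healthy articular cartilage. They hold type II collagen, aggrecan and related proteins in place around them, and in culture or after injury they can turn to a fibroblast-like program with type I and III collagen and contractile actin. Immediate early genes are transcription factors and regulators that cells switch on within minutes of a signal, through the CREB, SRF and MAP kinase routes, without new protein synthesis. Liposomes are taken up by endocytosis and their lipids pass through the lysosome, where cholesterol and fatty acids are set free.

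The level of each gene was the FPKM (fragments per kilobase of transcript, scaled to the mapped reads of the library) deposited by the authors. Read counts were not used, so the depth behind each value is unknown and no counting interval is given. Genes that reached 1 FPKM in 3 or more libraries, 11373 of 28546, were compared on the log2(FPKM + 0.5) scale with limma. On this scale the change of a weakly expressed gene is understated. A gene is called when its fold change exceeds 1.5 and its p, adjusted after Benjamini and Hochberg, is below 0.05, and the libraries of a gene are called apart when all 3 of one group lie above all 3 of the other. Several genes that most cells need are listed at 0 in all 12 libraries, among them Hsp90aa1, Tpi1, Hnrnpc and Myh9, so a low value in this table need not mean a silent gene.

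Each of the 12 libraries had 10858 to 11109 genes at or above 1 FPKM. A relative depth was computed from 24 genes with low values that lay close together across the libraries, and was 0.854 to 1.084. Genes picked for close values give similar depths by selection, so whether the libraries were sequenced to equal depth was not tested. The sum of all FPKM values was 406630 to 431169 in Lipo and 451738 to 464616 in Saline, without overlap. Saline 3 stood apart from Saline 1 and 2. Its root mean square difference from them was 0.38 and 0.43 on the log2 scale, against 0.27 between those libraries, and 158 genes lay over 1 log2 unit above both of them, while Saline 1 and Saline 2 had 11 and 16 such genes. Each main result is therefore given with and without Saline 3.

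The tissue label was checked against markers of cell types. The 9 chondrocyte markers, among them Col2a1, Acan and Sox9, summed to 9490 to 15200 FPKM in Lipo and 5470 to 10100 in Saline. Col2a1, the main collagen of cartilage, alone reached 4132.48 to 11441.27 FPKM in the 6 libraries. The 8 endothelial markers in the table summed to at most 0.41 FPKM and the 4 red cell markers to at most 0.05. The 17 leukocyte markers in the table summed to 24.5 to 26.7 FPKM in Lipo and 48.0 to 59.9 in Saline, with Cd163, Cd3e, Ms4a1, S100a9 and Mpo at 0 in all 6 libraries. Cd14, a receptor of bacterial lipopolysaccharide, made up most of this sum, at 19.85, 24.08 and 21.08 FPKM in Lipo and 38.48, 41.70 and 34.42 in Saline. Ptprc, Adgre1, Csf1r and Aif1, which define leukocytes and macrophages, reached at most 0.45 FPKM, and Lyz2, a lysozyme of myeloid cells, was at 10.34 FPKM in Saline 3 and at most 1.07 in the other 5 libraries. Of the 4 leukocyte markers that could be tested, Cd68, Cd14 and Cd79a were called lower in Lipo, at log2 fold changes of -1.66, -0.80 and -1.30. The 12 markers of fibroblasts and synovium summed to 461 to 643 FPKM in Lipo and 674 to 867 in Saline, of which Prg4, the lubricant protein of the joint surface, made up the larger part in the Saline libraries. In RNA from a whole culture, fewer cells of a type and less RNA per cell cannot be told apart, and the part of such cells in the results below was not tested.

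After Lipo the chondrocytes had higher levels of collagens and other fibrous matrix proteins and lower levels of immediate early transcription factors, chemokines, ribosomal proteins and DNA replication factors than after Saline. Lipo lay above Saline by the call in 1208 (10.6%) of the 11373 genes and below it in 1401 (12.3%). Without Saline 3 the counts were 1154 (10.1%) and 1342 (11.8%), and 997 higher and 1233 lower genes were called in both fits, with 0 genes called in opposite directions. With only the Lipo and Saline libraries fitted, after the same filter, 1170 genes were called higher and 1328 lower. All 3 Lipo libraries lay above all 3 Saline libraries for 3072 genes (27%) and below them for 3224 (28.3%). Of the 2609 called genes, 2502 had libraries apart in this way. The change was over 4-fold for 20 called genes that were higher and 25 that were lower. On the first principal component of the 500 most variable genes, which held 60.5% of the variance of the 6 libraries, Lipo lay between 13.4 and 17.4 and Saline between -19.6 and -14. Saline 3, at 16.1, and Lipo 1, at 7.2, were the highest on the second, which held 21% of it.

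The balance of higher and lower calls depended on scaling. With every library divided by its total FPKM, a scaling chosen after the values were seen, the calls were 1767 higher and 912 lower, and the median log2 fold change of all genes moved from -0.01 to 0.12. The group medians and list medians below are on the scale as deposited and can be read against that shift.

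**Figure D1:**
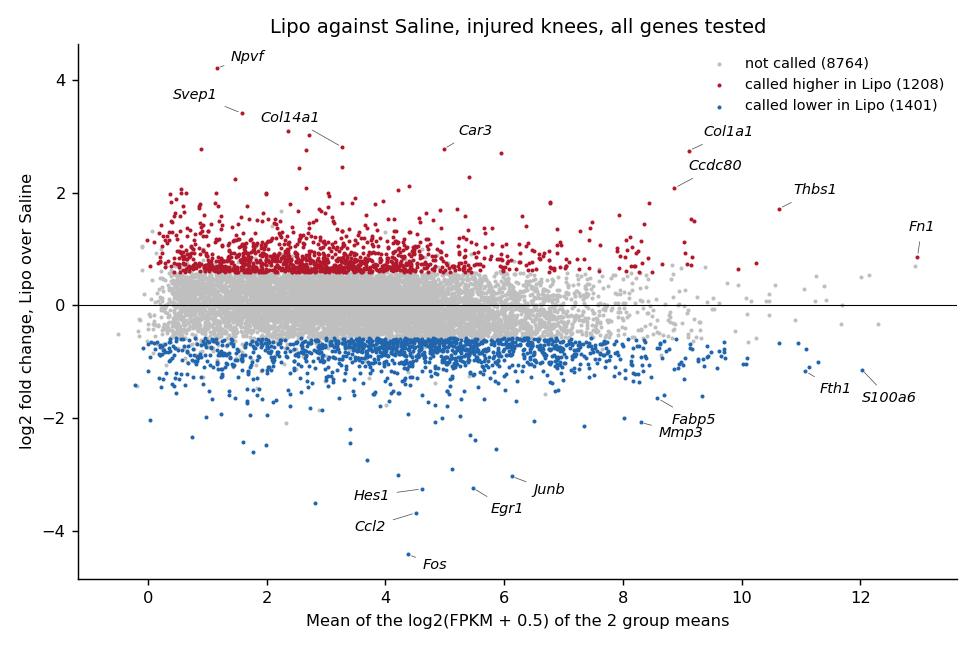
Log2 fold change of Lipo over Saline (vertical axis) against the mean level of the groups on the log2(FPKM + 0.5) scale (horizontal axis), 1 point per gene tested. Of 11373 genes, 1208 were called higher (red) and 1401 lower (blue), with Npvf at the top and Fos at the bottom.

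Fibrous matrix genes were higher in Lipo. Of 31 tested, 21 were called higher and 0 lower, with a median log2 fold change of 1.02, against 10.6% higher and a median of -0.01 over all genes. Without Saline 3 the counts were 20 and 0. The 3 Lipo libraries lay above the 3 Saline libraries for 21 of the 31, against 27% of all genes. Thbs1, an adhesive glycoprotein that also activates latent TGF-beta, was at 2457.64, 2894.11 and 3289.18 FPKM in Lipo and 872.89, 906.68 and 834.90 in Saline. Its log2 fold change was 1.71 (SE 0.20, adjusted p = 0.00025 from limma). The related Thbs2 had a log2 fold change of 1.53.

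The fibril collagen Col3a1 was at 896.64, 990.65 and 1025.09 FPKM in Lipo and 342.85, 256.68 and 463.09 in Saline (log2 fold change 1.49). Col12a1, a collagen that sits on the surface of fibrils, was at 57.83, 105.86 and 116.20 FPKM in Lipo and 23.64, 13.69 and 18.36 in Saline (log2 fold change 2.27). The groups did not overlap in either gene. Svep1, a large adhesion protein, rose from 0.35, 0.21 and 0.62 FPKM in Saline to 4.96, 10.86 and 12.61 in Lipo, the largest log2 fold change of the list at 3.41. Fn1, which encodes fibronectin and has the highest mean in Lipo of all called genes, was at 8770.27, 10796.01 and 12854.34 FPKM in Lipo and 5873.82, 6364.85 and 5430.25 in Saline (log2 fold change 0.86, adjusted p = 0.0082 from limma), a call that ended in 3 of the alternative settings. Other called members were Lox, which cross-links collagen (0.85), Pcolce, which enhances the trimming of procollagen (1.21), Fbn1, the main protein of microfibrils (0.63), Vcan, a large proteoglycan (0.93), and Tnc, a glycoprotein of remodelled tissue (1.15).

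Col1a1, the type I collagen of bone and scar, was split by Saline 3. It was at 1314.58, 677.13 and 1020.27 FPKM in Lipo, 107.20 and 35.82 in Saline 1 and 2, and 770.54 in Saline 3, which lay within the range of Lipo. The log2 fold change was 2.75 (SE 0.91, adjusted p = 0.029 from limma) with and 3.95 (adjusted p = 0.0024) without Saline 3. In Lipo-CGS the same gene was at 82.98 to 87.88 FPKM and in uninvolved knees at 20.27 to 129.65. Col14a1, a fibril-associated collagen, was at 16.06, 30.53 and 18.95 FPKM in Lipo, 1.82 and 0.94 in Saline 1 and 2 and 8.18 in Saline 3, and its log2 fold change was 2.81 with and 3.56 without Saline 3.

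Of 19 genes of the contractile cytoskeleton, 6 were called higher, 1 lower and 12 neither, with a median log2 fold change of 0.27, against 10.6% higher and 12.3% lower over all genes. Without Saline 3, 8 were called higher and 1 lower. Acta2, the actin of smooth muscle and myofibroblasts, was at 197.14, 166.04 and 229.83 FPKM in Lipo and 67.79, 29.34 and 80.54 in Saline (log2 fold change 1.84, SE 0.30, adjusted p = 0.00093 from limma). Mylk, the kinase that starts contraction, had a log2 fold change of 1.80, Vcl, which links actin to adhesion sites, one of 1.12, and Cald1, which binds actin, one of 0.94. The member called lower was Des, an intermediate filament of muscle, at -1.14. Of the fibroblast markers, Fap, a surface protease (1.38), and Thy1, a surface protein (1.06), were called higher and Prg4 lower. Thy1 lost its call without Saline 1 and without Saline 2 (adjusted p = 0.055 and 0.052 from limma). It was at 52.88 and 64.82 FPKM in Saline 1 and 2, while Saline 3, at 152.16, lay close to the 157.6 to 175.66 of Lipo.

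Genes of cartilage matrix moved in both directions, with more called higher than lower. Of 34 tested, 10 (29.4%) were called higher and 3 (8.82%) lower, against 10.6% and 12.3% over all genes. The median log2 fold change was 0.47, and without Saline 3 the counts were 7 and 4. Comp, a protein that organizes collagen fibrils, was at 339.91, 578.50 and 732.58 FPKM in Lipo and 183.05, 241.89 and 159.66 in Saline (log2 fold change 1.45, SE 0.27, adjusted p = 0.0018 from limma). Col9a1, a chain of the type IX collagen that coats type II fibrils, was at 36.12, 98.06 and 68.64 FPKM in Lipo and 19.18, 26.94 and 12.79 in Saline (log2 fold change 1.71). The groups were apart in both genes, with Lipo 1 the lowest of the Lipo libraries. Col11a1, a collagen of the fibril core, had a log2 fold change of 1.12 and Matn2, a matrix adaptor protein, one of 1.10.

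Acan, the core protein of aggrecan, was at 1099.01, 1757.99 and 1851.63 FPKM in Lipo and 954.08, 1148.56 and 680.54 in Saline, with overlap. It was called higher with all libraries (log2 fold change 0.75, adjusted p = 0.028 from limma) and not without Saline 3 (0.55, adjusted p = 0.11). Bgn, a small proteoglycan, likewise lost its call, at log2 fold changes of 0.65 and 0.55. Col2a1 did not pass in either fit, at 0.70 and 0.45 on the log2 scale (limma adjusted p = 0.067 and 0.25), nor did Sox9, the transcription factor of chondrocyte identity, at -0.16 and -0.40. Without Lipo 1, 16 of the 34 genes were called higher.

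Among the members that fell were Dcn, Prg4 and Chad. Dcn, which encodes the collagen-binding proteoglycan decorin, was at 178.74, 599.52 and 355.51 FPKM in Lipo and 585.42, 1412.91 and 1308.97 in Saline, a log2 fold change of -1.61. Lipo 2 lay just above Saline 1, so that the groups overlapped. Prg4 was at 137.88, 284.15 and 275.35 FPKM in Lipo and 489.31, 697.92 and 451.49 in Saline, without overlap (log2 fold change -1.28, adjusted p = 0.011 from limma). Chad, a leucine-rich protein that binds chondrocytes, had a log2 fold change of -1.0.

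Of 29 tested proteases of the matrix and their inhibitors, 12 (41.4%) were called higher and 7 (24.1%) lower, against 10.6% and 12.3% over all genes. Without Saline 3 the counts were 15 and 6. The stromelysins Mmp3 and Mmp10, which cut proteoglycans and activate other proteases, were lower. Mmp3 was at 134.60, 174.47 and 149.22 FPKM in Lipo and 598.60, 703.72 and 632.77 in Saline (log2 fold change -2.08, SE 0.16, adjusted p = 2.6e-05 from limma), and Mmp10 at 11.84, 18.17 and 15.27 FPKM and 47.12, 54.29 and 55.48 (-1.78). Both genes were far apart between the groups and close within them. Plaur, the receptor of urokinase (-1.79), and Timp1, an inhibitor of metalloproteinases (-0.94), fell as well.

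The aggrecanase Adamts5, which cuts the core protein of aggrecan, moved the other way. It was at 14.99, 23.87 and 22.99 FPKM in Lipo and 7.55, 8.63 and 8.90 in Saline (log2 fold change 1.23, SE 0.19, adjusted p = 0.00072 from limma). Adamts14, which trims procollagen, had a log2 fold change of 1.59. Mmp13, the main collagenase of cartilage, was at 10.19, 13.45 and 12.46 FPKM in Lipo and 1.15, 3.71 and 8.70 in Saline. Saline 3 was the highest of its group, and the log2 fold change was 1.64 with it and 2.24 without it. Of 13 tested genes of hypertrophy and mineralization, 1 (7.69%) was called higher and 3 (23.1%) lower, against 10.6% and 12.3% over all genes. Without Saline 3 the counts were 1 and 2, and the median log2 fold change with all libraries was 0.05. Mmp13 was the member called higher, and Phospho1, a phosphatase that starts mineralization, Spp1 and Vegfa were those called lower. Phospho1 was at 6.37, 5.16 and 5.78 FPKM in Lipo and 14.04, 16.34 and 26.45 in Saline (log2 fold change -1.59), while the call of Spp1, a secreted phosphoprotein, ended without Saline 3 (adjusted p = 0.15 from limma). Col10a1, the collagen of hypertrophic cartilage, had a log2 fold change of -0.09 and did not pass.

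**Figure D2:**
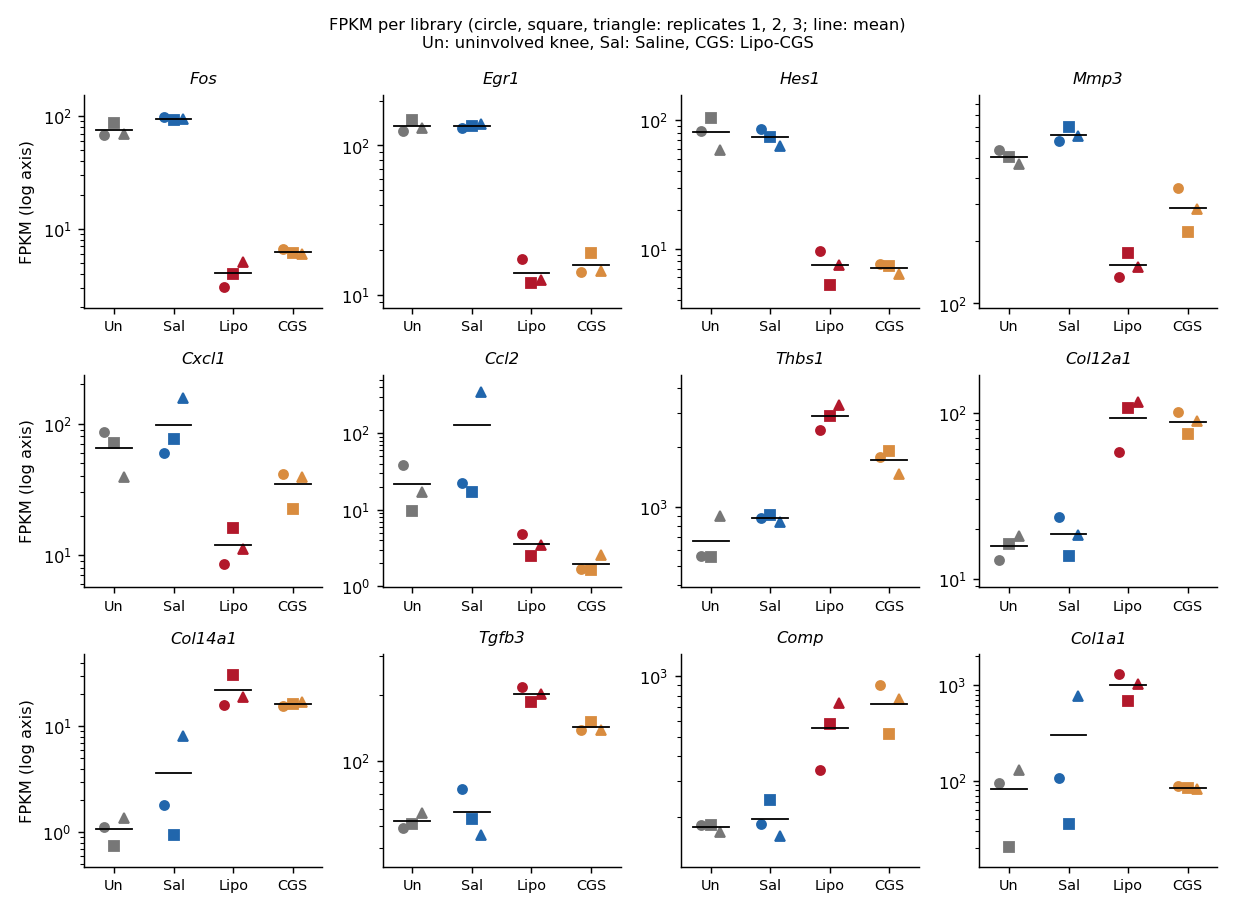
FPKM on a log axis of 12 genes in each of the 12 libraries, by group, with the mean of each group as a line. In Fos, Egr1, Hes1 and Mmp3 the 3 Lipo libraries lie below the 3 Saline libraries and in Thbs1, Col12a1, Tgfb3 and Comp above them, while Saline 3 stands apart from Saline 1 and 2 in Ccl2, Col14a1 and Col1a1.

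Ligands of the TGF-beta family were among the genes that rose. Tgfb3 was at 217.86, 185.35 and 202.04 FPKM in Lipo and 74.24, 53.98 and 45.91 in Saline (log2 fold change 1.81, SE 0.15, adjusted p = 2.6e-05 from limma). Tgfb2 was at 77.22, 84.33 and 81.91 FPKM in Lipo and 35.01, 30.14 and 28.27 in Saline (log2 fold change 1.37). Tgfb1, the third ligand, had a log2 fold change of -0.07 and did not pass. The receptor Tgfbr2 (1.06), the signal transducer Smad3 (1.01) and the activin subunit Inhbb (1.60) were called higher, while Pmepa1 (-1.27), which dampens the signal in the cytoplasm, and the corepressor Tgif1 (-0.85) were called lower. In all, 6 of 25 genes (24%) were called higher and 2 (8%) lower, against 10.6% and 12.3% over all genes. The counts were the same without Saline 3, and the median log2 fold change was 0.24.

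In the related BMP list 5 of 29 were called higher and 6 lower, against 10.6% and 12.3% over all genes. The lower count was 3 without Lipo 3 and 2 with the span trend described below removed. Chrd, which binds and blocks BMPs, had a log2 fold change of 1.12, Bmp4 one of 1.07 and the receptor Bmpr2 one of 0.92. Id1, a helix-loop-helix inhibitor that BMPs induce, was at 208.44, 167.00 and 151.47 FPKM in Lipo and 428.51, 411.76 and 327.03 in Saline (log2 fold change -1.15), and Id3 had a log2 fold change of -0.90.

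Of 27 growth factors and receptors of the IGF, FGF, PDGF and VEGF families, 10 (37%) were called higher and 3 (11.1%) lower. The shares over all genes were 10.6% and 12.3%, and without Saline 3 the counts of the list were 11 and 3. Pdgfc, a mitogen of mesenchymal cells, was at 17.86, 22.18 and 19.41 FPKM in Lipo and 4.18, 5.45 and 6.21 in Saline (log2 fold change 1.82, SE 0.16, adjusted p = 5.2e-05 from limma). The receptor Pdgfrb (0.80), the clearance receptor Igf2r (1.08) and the coreceptor Nrp1 (1.68) were called higher. Hbegf, an EGF receptor ligand, fell from 75.11, 54.92 and 73.43 FPKM in Saline to 26.83, 21.16 and 21.46 in Lipo (log2 fold change -1.52), and Vegfa, which attracts vessels, had a log2 fold change of -0.77.

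Immediate early genes were lower in Lipo. Of 31 tested, 23 were called lower and 0 higher, with a median log2 fold change of -1.17, against 12.3% lower over all genes. Without Saline 3, 24 were lower and 0 higher. The Lipo libraries lay below the Saline libraries for 27 of the 31, against 28.3% of all genes. Fos, a subunit of the AP-1 transcription factor, was at 3.07, 4.0 and 5.03 FPKM in Lipo and 99.32, 92.53 and 94.08 in Saline. This is a log2 fold change of -4.42 (SE 0.14, adjusted p = 1.5e-08 from limma), the lowest among the called genes, and -4.43 without Saline 3. In Lipo-CGS Fos was at 6.26 ± 0.35 FPKM and in uninvolved knees at 75.0 ± 10.1 (SD, n = 3 each).

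Egr1, a zinc finger factor, was at 17.42, 12.04 and 12.58 FPKM in Lipo and 131.76, 134.62 and 138.21 in Saline (log2 fold change -3.24, SE 0.15). Junb, the partner of Fos, was at 19.78, 25.42 and 26.58 FPKM in Lipo and 187.68, 216.69 and 191.58 in Saline (-3.04), and the orphan receptor Nr4a1 at 7.48, 4.37 and 6.34 and 61.37, 46.95 and 47.11 (-3.01). The 3 Saline libraries were close to each other in all of these genes, Saline 3 included, and none of the calls of Fos, Egr1, Junb and Nr4a1 was lost in the 20 alternative settings run per gene. Ier2, a nuclear protein of early growth, was at 19.78, 18.88 and 19.36 FPKM in Lipo and 107.55, 103.36 and 98.56 in Saline (-2.38, SE 0.09). Zfp36, which speeds the decay of cytokine transcripts, was at 18.81, 18.36 and 19.61 FPKM and 56.29, 58.66 and 57.59 (-1.58). Btg2, an inhibitor of growth, had a log2 fold change of -1.66, Jun one of -2.01, Klf2 one of -1.96 and Myc one of -0.97. Fosl2 and Klf6 did not pass, at 0.21 and 0.19.

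The promoters of 4 of these genes are shown because the list moved together and because each holds a sequence known to bind CREB or SRF, the factors that start immediate early transcription. They run 5′ to 3′ on the strand of the gene from 250 bases before to 50 bases after the start in the RefSeq annotation of GRCr8, with matches in capitals. The motifs were the cAMP response element TGACGTCA and the CArG box of SRF, searched on both strands of 20 list members that had a promoter in the reference.

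Egr1 (chr18:26736828-26737127, plus strand, with a pair of CArG boxes): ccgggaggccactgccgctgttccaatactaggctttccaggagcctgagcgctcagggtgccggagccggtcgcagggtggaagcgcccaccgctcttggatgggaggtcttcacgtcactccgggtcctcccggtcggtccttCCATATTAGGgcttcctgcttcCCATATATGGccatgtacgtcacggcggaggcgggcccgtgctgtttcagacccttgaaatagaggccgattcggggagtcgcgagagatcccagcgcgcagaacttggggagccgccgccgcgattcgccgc
Zfp36 (chr1:92799059-92799358, minus strand, with a CArG box): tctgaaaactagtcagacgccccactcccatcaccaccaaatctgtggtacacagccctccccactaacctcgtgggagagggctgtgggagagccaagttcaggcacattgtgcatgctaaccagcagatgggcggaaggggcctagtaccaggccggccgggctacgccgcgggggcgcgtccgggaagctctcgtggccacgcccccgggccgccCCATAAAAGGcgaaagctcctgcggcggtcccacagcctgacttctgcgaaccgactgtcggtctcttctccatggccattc
Ier2 (chr19:40399123-40399422, plus strand, with a cAMP response element): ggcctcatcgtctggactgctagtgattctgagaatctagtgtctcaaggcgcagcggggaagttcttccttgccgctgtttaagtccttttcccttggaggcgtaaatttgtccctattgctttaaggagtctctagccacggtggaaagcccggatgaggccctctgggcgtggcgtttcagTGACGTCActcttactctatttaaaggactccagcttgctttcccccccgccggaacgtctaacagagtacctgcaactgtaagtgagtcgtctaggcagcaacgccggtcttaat
Btg2 (chr13:48087641-48087940, minus strand, with a cAMP response element): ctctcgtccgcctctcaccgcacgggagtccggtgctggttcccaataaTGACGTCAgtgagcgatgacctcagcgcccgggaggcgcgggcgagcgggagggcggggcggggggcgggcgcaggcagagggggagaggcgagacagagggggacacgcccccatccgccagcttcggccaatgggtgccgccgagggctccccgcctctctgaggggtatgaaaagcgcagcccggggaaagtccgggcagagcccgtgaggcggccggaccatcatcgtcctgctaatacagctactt

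The cAMP response element was in 4 of the 20 promoters (20%) and in 3.25% of the 8338 promoters of all tested genes that could be matched. The CArG box was in 4 of the 20 and in 1.22% of all. The AP-1 site TGANTCA was in 1 of the 20 (5%) and in 4.62% of all. Over all genes called lower these shares were 4.07%, 1.42% and 6.5%, and over all called higher 2.65%, 1.85% and 5.31%. Jund, Ier2, Btg2 and Maff held the cAMP response element and Egr1, Egr2, Zfp36 and Klf6 the CArG box. All of these but Klf6 were called lower. Both motifs were absent from Junb, Nr4a1, Fosb, Fosl1, Nr4a2, Klf4 and Sgk1, which were also called lower. They were absent as well from Fosl2, Ier5, Btg1, Zfp36l1 and Per1, which were not called. Fos and Jun were not among the 20. A match describes letters in the window and not a bound factor.

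Among 17 genes that the MAP kinase route induces to limit itself, 6 were called lower and 2 higher, 9 were not called, and the median log2 fold change was -0.29. Over all genes 12.3% were called lower and 10.6% higher. Without Saline 3 the counts were 6 and 1, and with the span trend described below removed 6 and 0. Spry2, which blocks receptor tyrosine kinase signals, was at 20.05, 18.66 and 18.18 FPKM in Lipo and 59.54, 54.58 and 52.28 in Saline (log2 fold change -1.52, SE 0.12, adjusted p = 2.6e-05 from limma). Errfi1, an inhibitor of the EGF receptor, had a log2 fold change of -1.79 and the MAP kinase phosphatases Dusp1 and Dusp5 ones of -1.26 and -1.87. Hes1, a repressor that Notch and other signals induce, was at 9.66, 5.26 and 7.55 FPKM in Lipo and 85.86, 74.62 and 63.35 in Saline (log2 fold change -3.26, SE 0.22). The Notch ligand Jag1 and the receptor Notch2, by contrast, were called higher, at 0.83 and 0.80.

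Chemokines and cytokines were lower in Lipo, and for some of them Saline 3 set the size of the change. Of 14 tested, 10 were called lower and 1 higher, in both fits. Over all genes 12.3% were called lower and 10.6% higher. Cxcl1, which attracts neutrophils, was at 8.54, 16.10 and 11.07 FPKM in Lipo and 59.94, 76.22 and 156.82 in Saline (log2 fold change -2.90 with and -2.50 without Saline 3). Ccl2, which attracts monocytes, was at 4.87, 2.46 and 3.52 FPKM in Lipo, 22.37 and 16.85 in Saline 1 and 2, and 340.76 in Saline 3. Its log2 fold change was -3.68 (SE 0.89, adjusted p = 0.0064 from limma) with and -2.32 (adjusted p = 0.0041) without Saline 3. Ccl7, its neighbour in function, went from -3.50 to -2.14.

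Cxcl16, Lif and Cxcl10 had log2 fold changes of -1.08, -1.71 and -1.50 and little spread between the Saline libraries. Cxcl16, a chemokine that also acts as a scavenger receptor, was at 5.75, 7.10 and 6.37 FPKM in Lipo and 12.46, 14.85 and 15.08 in Saline. The member called higher was Tnfsf18, a ligand of the TNF family, at 58.10, 26.05 and 36.06 FPKM in Lipo and 17.11, 10.51 and 12.94 in Saline (log2 fold change 1.48). The cytokines Il1b, Il6 and Tnf were among 17 listed genes that did not reach the level needed for a test. Of the leukocyte markers, Cd14 and Cd68 were called lower as well, while Ptprc, Adgre1, Csf1r and Aif1 were at 0.45 FPKM or less in all 6 libraries. In Saline 3, where Ccl2 and Ccl7 were highest, the myeloid markers Lyz2 and Tyrobp were at 10.34 and 2.9 FPKM. In the rest of the 6 libraries they were at most at 1.07 and 0.13. The part of such cells in the chemokine levels was not tested.

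Of 26 genes of the NF-kB pathway, 8 (30.8%) were called lower and 0 higher, against 12.3% and 10.6% over all genes. Without Saline 3 the counts were 7 and 0, and with neither Lipo 1 nor Saline 3 they were 5 and 0. Lower members included the inhibitors Nfkbia (-1.26) and Nfkbib (-0.96), which NF-kB itself induces or binds, the related Nfkbiz (-1.57), and Socs3 (-1.08), which blocks cytokine receptors. Nfkbia was at 14.13, 18.57 and 18.26 FPKM in Lipo and 31.60, 45.96 and 47.60 in Saline. Lcn2, an iron-binding protein of the acute phase that chondrocytes secrete under inflammatory signals, was at 64.13, 195.77 and 139.96 FPKM in Lipo and 382.98, 689.06 and 431.73 in Saline (log2 fold change -2.0, SE 0.41, adjusted p = 0.0029 from limma). The groups did not overlap, and Lipo 1 was the lowest of the libraries.

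Since the groups differ in lipid, genes of lipid handling were counted by role. Enzymes of cholesterol synthesis, which cells turn down when sterol is plentiful, showed few calls at the fold threshold. Of 26, Lss, a cyclase of the pathway, was called higher (3.85%) and Ebp, an isomerase, lower (3.85%), against 10.6% and 12.3% over all genes. The median log2 fold change was 0.28. Without the fold threshold 12 of the 26 were higher and 2 lower, against 2450 and 2786 of all 11373 genes. Lss was at 16.86, 15.87 and 18.91 FPKM in Lipo and 10.53, 11.53 and 9.51 in Saline, without overlap. Without Saline 3, Ebp lost its call. The counts here depended on scaling as well. Once libraries were brought to equal FPKM totals, 6 (23.1%) were higher and 0 lower, against 15.5% and 8.02% over all genes. Once the trend with gene span described below was removed, 4 (15.4%) were higher and 0 lower, against 8.89% and 8.44% over all genes.

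Fatty acid synthesis genes had 4 of 14 (28.6%) called higher and 0 lower in both fits. Over all genes the shares with all libraries were 10.6% and 12.3%. Scd2, a desaturase that makes oleic acid from stearic acid, was at 73.43, 81.14 and 55.55 FPKM in Lipo and 21.19, 20.57 and 26.77 in Saline (log2 fold change 1.59, SE 0.16, adjusted p = 0.00012 from limma). The related Scd (1.31), Acaca, the carboxylase that commits carbon to fatty acids (0.72), and Fads2, a desaturase of polyunsaturated fatty acids (0.82), were called higher. Among the 33 genes of lipid droplets and fatty acid use, 4 (12.1%) were called higher and 3 (9.09%) lower, shares near those over all genes. The binding protein Fabp5 fell from 663.07, 625.09 and 737.04 FPKM in Saline to 258.34, 216.27 and 175.91 in Lipo (log2 fold change -1.65), and Fabp4, a related protein that adipocytes also make, had a log2 fold change of -1.79. Fabp4 made up most of the summed adipocyte markers, at 1.99, 2.05 and 2.69 FPKM in Lipo and 5.56, 9.10 and 13.87 in Saline. Adipoq, Plin1, Lep and Cfd, which define adipocytes, were at 0.11 FPKM or less in all 6 libraries. Plin2, the coat of lipid droplets, had a log2 fold change of -0.25 and did not pass.

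Of 45 lysosomal genes, 7 (15.6%) were called higher and 1 (2.22%) lower, with the same counts without Saline 3. The share called higher was near the 10.6% over all genes, while the share called lower was below the 12.3% over all genes. The median log2 fold change of the list was 0.28, against -0.01 over all genes. The acid glucosidase Gaa was at 77.83, 114.57 and 109.54 FPKM in Lipo and 57.41, 59.24 and 57.11 in Saline (log2 fold change 0.77), and the proton pump subunit Atp6v1a and the membrane receptor Scarb2 had log2 fold changes of 0.97 and 0.87. The member called lower was Tfeb, a transcription factor of lysosomal genes, at -0.72. Without Lipo 1, 12 of the 45 (26.7%) were called higher, without Lipo 2, 4 (8.89%), and with equal FPKM totals, 13 (28.9%). The shares called higher over all genes in these fits were 12%, 9.79% and 15.5%. Of 17 genes of cholesterol efflux and storage, Lrp1, an endocytic receptor, Lipa, the acid lipase of the lysosome, and Abca1, the cholesterol exporter, were called higher, at 1.13, 0.64 and 0.74, and 0 lower. Their share was 17.6%, against 10.6% over all genes. Without Saline 1 the counts of this list were 2 higher and 1 lower, as they were without Saline 2 and without Lipo 3, and without Lipo 1 they were 5 and 0. Scara5, a ferritin receptor of the scavenger family, was at 8.47, 14.15 and 16.96 FPKM in Lipo and 1.3, 1.89 and 2.81 in Saline, a log2 fold change of 2.44, and Lipo libraries lay well above those of Saline.

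**Figure D3:**
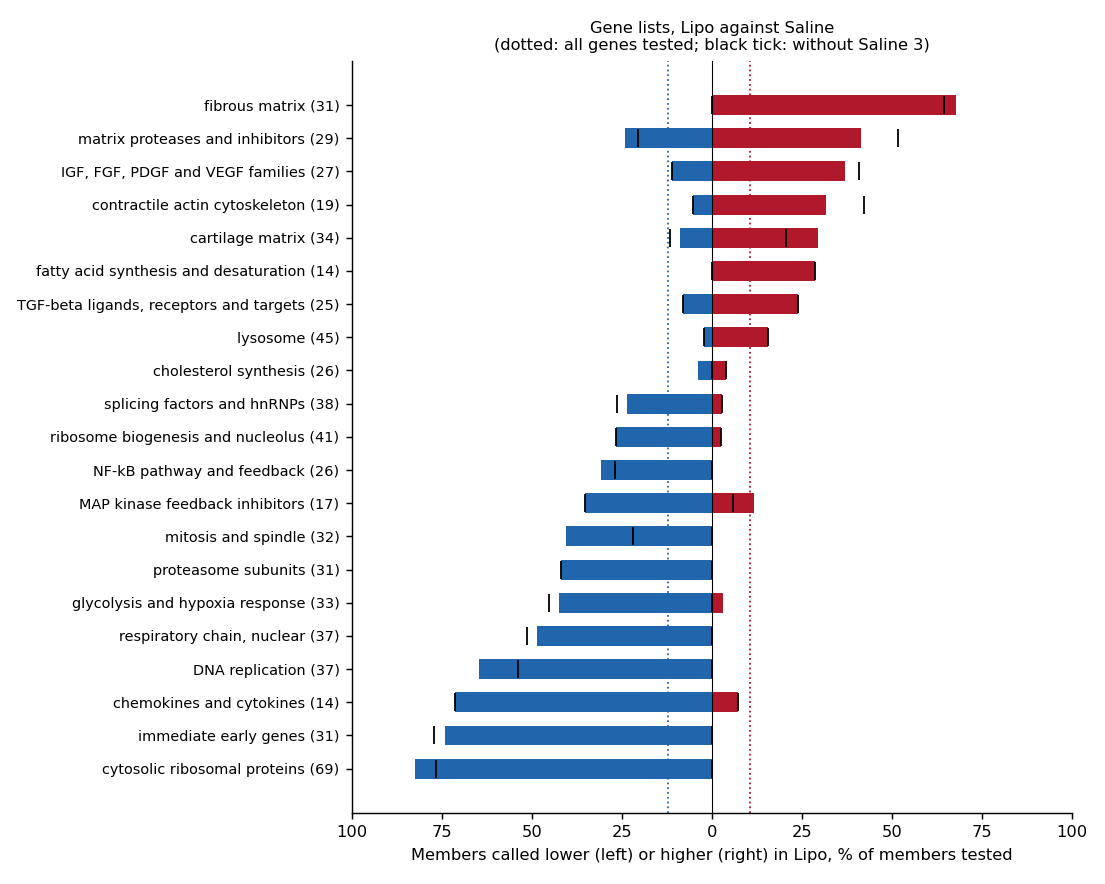
Share of tested members of 21 gene lists called higher (right, red) or lower (left, blue) in Lipo, with the number tested in brackets, black ticks for the fit without Saline 3 and dotted lines for all genes tested (10.6% and 12.3%). Fibrous matrix genes reach 67.7% higher, and ribosomal protein, immediate early and chemokine genes 82.6%, 74.2% and 71.4% lower.

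Ribosomal protein genes were lower in Lipo. Of 69 tested, 57 (82.6%) were called lower and 0 higher, against 12.3% and 10.6% over all genes. The median log2 fold change was -0.92, and the counts without Saline 3 were 53 and 0. Rps27, a protein of the small subunit, was at 201.69, 239.50 and 209.03 FPKM in Lipo and 526.94, 449.79 and 479.93 in Saline (log2 fold change -1.16, SE 0.16, adjusted p = 0.00047 from limma). Rpl37a, of the large subunit, had a log2 fold change of -1.21. Ribosomal protein genes have many near-identical pseudogenes, and reads of these can be split between copies.

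Among the most abundant genes called lower were Fth1 and genes of the S100 family. Fth1, the heavy chain of ferritin, was at 1296.45, 1546.85 and 1447.25 FPKM in Lipo and 2773.98, 3761.41 and 3197.74 in Saline (log2 fold change -1.17). The calcium-binding protein S100a6 was at 2905.92, 2780.07 and 2669.84 FPKM in Lipo and 7640.03, 5623.02 and 5425.87 in Saline (-1.14), and S100a11, S100a4 and S100a10 had log2 fold changes of -1.01, -1.09 and -1.05. Of 37 nuclear genes of the respiratory chain, 18 (48.6%) were called lower and 0 higher, and of 31 proteasome subunits 13 (41.9%) and 0. Over all genes 12.3% were called lower. Cox8a, a subunit of cytochrome oxidase, and Psmb3, a subunit of the proteasome core, had log2 fold changes of -0.81 and -1.03. The 11 transcripts of the mitochondrial genome itself had 1 (9.09%) called higher, near the 10.6% over all genes, and 0 lower.

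The calls followed the length of the genes. Of the 11373 tested genes, 10569 (92.9%) had a span, from first to last base on the genome, in the RefSeq list of GRCr8. The median span was 66.2 kb for genes called higher, 8.2 kb for genes called lower and 25.5 kb for the rest. Over 5 classes of equal size, in the class with the shortest genes (median 4.38 kb) 3.74% were called higher and 30.3% lower, and in the class with the longest (median 120 kb) 25.7% and 2.65%. The difference between the median centred levels of the longest and shortest class was 0.38 to 0.46 log2 units in the Lipo libraries and -0.28 to -0.22 in the Saline libraries. It was 0.14 to 0.27 in Lipo-CGS and -0.54 to -0.04 in uninvolved knees. The shortest class without the ribosomal and respiratory genes still had 28.2% of its 2029 genes called lower. What moved with gene span was not tested.

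Each library was then fitted with a smooth trend on span, and the trend was removed, an alternative chosen after the values were seen. This left 940 genes called higher and 892 lower, of which 706 and 701 were among the calls on the values as deposited. Of the 69 ribosomal protein genes, 65 are in the shortest class, and 26 stayed called lower. The respiratory chain went from 18 to 7 and the proteasome from 13 to 6. With equal FPKM totals these counts were 12 and 7. The counts of immediate early genes (19 of 31 lower), fibrous matrix (19 of 30 higher), DNA replication (22 of 37 lower) and chemokines (10 of 14 lower) moved by less than 1.5 times. Fth1 and the S100 genes named above stayed called, while Id1, Id3 and Cox8a did not.

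**Figure D4:**
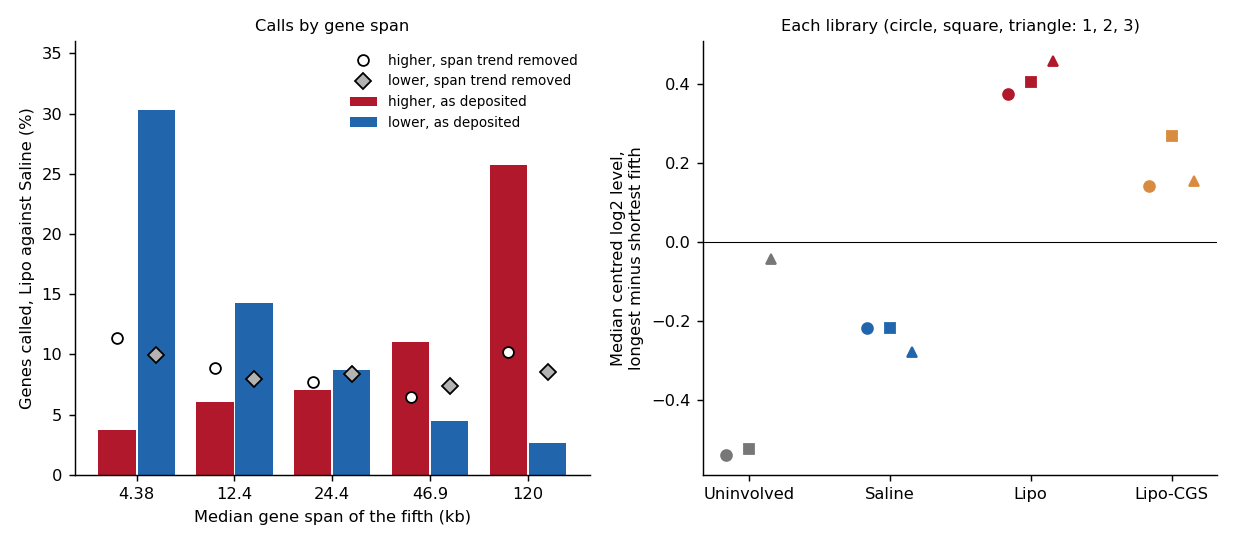
Left, share of genes called higher (red) and lower (blue) in Lipo by class of gene span (5 classes of equal size), with open circles and grey diamonds for the shares after removal of the span trend. Right, the difference between the longest and shortest class in each library, on the centred log2 scale, which was 0.38 to 0.46 in Lipo and -0.28 to -0.22 in Saline.

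Genes of DNA replication were lower in Lipo. Of 37 tested, 24 (64.9%) were called lower and 0 higher, with a median log2 fold change of -0.73, against 12.3% lower over all genes. The counts were 20 and 0 without Saline 3, or 15 lower when the other Lipo and Saline libraries were fitted alone. Pcna, the sliding clamp of DNA polymerases, was at 148.92, 120.15 and 89.36 FPKM in Lipo and 266.49, 281.42 and 285.52 in Saline (log2 fold change -1.24, SE 0.17, adjusted p = 0.00054 from limma). Mcm7, of the replicative helicase, had a log2 fold change of -1.08, Cdt1, which loads it, one of -1.18 and Gins1, which activates it, one of -1.40. Lipo 1 was the highest of the Lipo libraries in Pcna and Lipo 3 the lowest, and all 3 lay below Saline.

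Genes of mitosis were called less evenly. Of 32 tested, 13 (40.6%) were called lower and 0 higher, against 12.3% and 10.6% over all genes. Without Saline 3, 7 were lower. The count was 21 without Lipo 1, 7 without Lipo 2 and 3 without Lipo 3. Ube2c, which marks mitotic proteins for destruction, was at 13.59, 8.66 and 6.64 FPKM in Lipo and 22.33, 21.58 and 29.22 in Saline (log2 fold change -1.34), and Cdk1, the kinase of mitotic entry, at 106.22, 73.27 and 52.27 and 141.00, 152.69 and 165.71 (-1.04). Mki67, a marker of dividing cells, and Top2a, the topoisomerase of chromosome segregation, did not pass, at -0.35 and -0.48.

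Of 33 genes of glycolysis and the response to low oxygen, 14 were called lower, 1 higher and 18 neither, with 12.3% lower over all genes. Without Saline 3 the counts were 15 lower and 0 higher. Slc2a1, which brings glucose into the cell, was at 74.16, 90.58 and 83.56 FPKM in Lipo and 150.52, 153.65 and 129.06 in Saline (log2 fold change -0.80, SE 0.10, adjusted p = 0.00033 from limma). Ldha, which makes lactate, Eno1, an enolase, and Gpi, which follows hexokinase, had log2 fold changes of -0.86, -1.11 and -0.85. Bnip3, a mitochondrial protein that low oxygen induces, had one of -0.92. Hif1a, the factor behind this response, did not pass at -0.04. The member called higher, Car9, lost its call without Saline 3.

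Several of the largest changes lay outside these lists. Npvf, which encodes RFamide neuropeptides, was at 7.73, 10.89 and 8.74 FPKM in Lipo and 0.05, 0 and 0 in Saline, the largest log2 fold change of the table at 4.21 (SE 0.19, adjusted p = 2.2e-07 from limma). Anxa3, a phospholipid-binding annexin, was at 18.43, 14.60 and 10.35 FPKM in Lipo and 1.47, 1.71 and 0.64 in Saline (3.10). Car3, a carbonic anhydrase, was at 60.65, 96.95 and 88.39 FPKM in Lipo and 14.90, 11.02 and 8.83 in Saline (2.77). In each of these the groups were far apart. Cemip, which takes part in the breakdown of hyaluronan, had a log2 fold change of 2.12, Ccdc80, a matrix protein, one of 2.08, C1qtnf3, a secreted protein related to complement C1q, one of 2.75, and Vgll3, a cofactor of TEAD factors, one of 2.08. The row of Mir675, a microRNA made from the H19 transcript, was at 10.42, 46.80 and 16.59 FPKM in Lipo and 88.36, 228.68 and 86.14 in Saline (log2 fold change -2.55). The reads counted there need not come from the mature microRNA.

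Leaving out Saline 3 changed the calls of 645 genes, while 2230 were called in both fits. Leaving out any of the other 5 libraries changed 481 to 626 calls, so the number alone does not set Saline 3 apart. In this library Lum, which encodes the proteoglycan lumican, was at 136.38 FPKM, against 7.78 and 5.03 in Saline 1 and 2 and 5.47 to 11.95 in Lipo. Aqp1, a water channel, was at 219.77 FPKM against 14.68 and 5.82, and Kcnn4, a potassium channel, at 43.31 against 2.98 and 1.10. These 3 genes were chosen after their values were seen, by their distance from the other Saline libraries, together with Ccl2, Ccl7 and Col1a1. None of the other 11 libraries came near these levels of Lum and Aqp1, the highest being 25.81 FPKM of Aqp1 in Lipo 1.

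For Lgals1, a galactose-binding lectin, Saline 3 hid a difference. It was at 951.67, 876.78 and 670.51 FPKM in Lipo, 303.51 and 398.45 in Saline 1 and 2, and 1997.92 in Saline 3, a log2 fold change of 0.40 with Saline 3 (limma adjusted p = 0.56) and 1.24 without it (adjusted p = 0.0053). Gpc1, a cell surface proteoglycan, went from 0.53 to 1.10, and Igfbp6, an IGF binding protein, from -0.52 to 0.77 and to a call. In the other direction, Sod2, the superoxide dismutase of mitochondria, went from -1.27 to -1.14 and lost its call (adjusted p = 0.056), as did Enpp2, which makes lysophosphatidic acid (1.09, adjusted p = 0.13).

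**Figure D5:**
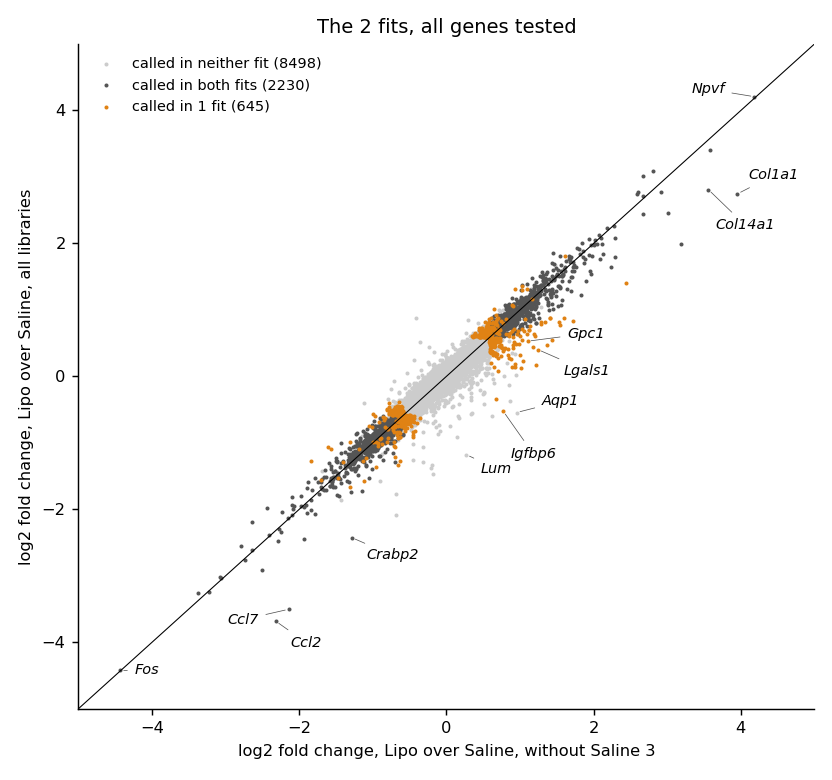
Log2 fold change of Lipo over Saline with all libraries (vertical axis) against that without Saline 3 (horizontal axis), 1 point per gene tested, with the line of equal values. Of 11373 genes 2230 were called in both fits (dark) and 645 in 1 fit (orange), and Lum, Aqp1, Ccl2 and Ccl7 lie below the line.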

How the data were processed

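The deposited table held FPKM values, which the authors computed per gene after alignment with STAR to the rat genome Rnor_6.0. The study's methods name featureCounts and the labels name HTSeq for the counting, and the step from counts to FPKM is not given in the sources used here. Values have 2 decimals and depth is unknown. The libraries were grouped by their labels, and no batch or date is given.

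All 12 libraries were fitted together on log2(FPKM + 0.5) with limma 3.58.1 in R 4.3.3 (1 mean per group, trended empirical Bayes, 8 residual degrees of freedom), with Benjamini-Hochberg adjustment over the 11373 genes that reached 1 FPKM in 3 or more libraries. The fit was tested on simulated data. An exact permutation test of 3 against 3 libraries cannot go below a two-sided p of 0.1, so none was used. Gene spans and promoters came from RefSeq GRCr8.

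The comparison and the gene lists were chosen with earlier results of these data known. Named genes were the 15 largest changes in each direction that passed with and without Saline 3, without overlap and at 5 FPKM or more, the 8 most abundant such genes of each direction, up to 5 called members per list with the smallest p, and the markers. Other named genes were chosen after their values were seen. Alternatives left out each library, changed the pseudocount to 1 or 0.1, the filter, the scaling, the libraries fitted, the variance model or the thresholds, or added a replicate block. Equal FPKM totals, removal of the span trend (lowess, f 0.3) and leaving out both Lipo 1 and Saline 3 were chosen after seeing the data. Results of some genes are not reported here.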

Additional observations from a re-analysis of the deposited data

How the results depend on the processing

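Of 140 called genes named in the text, 114 kept their call and direction in all 20 alternative settings run per gene and 127 in all fits that left out 1 library, and none of the 140 changed sign. Leaving out Saline 3 ended 7 of these calls, removal of the span trend 13 and equal FPKM totals 2. The counts over all genes moved by more than 1.5 times in 4 settings. Genes called lower numbered 912 with equal FPKM totals and 892 after removal of the span trend, and the cause was not tested. Without a fold threshold 2450 genes were higher and 2786 lower, and with a fold change over 2 the counts were 327 and 343, which follows from the threshold itself.

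Whether the replicate numbers pair the libraries cannot be told from so few values. The deviations of same-numbered libraries correlated at -0.03, 0.20 and -0.17, and those of differently numbered libraries at -0.34 to 0.29. With a replicate block, 1200 genes were higher and 1384 lower. Without Saline 3 the counts were 907 and 1101 with the block, against 1154 and 1342 without it.

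Some genes that were not called changed sign. Without Saline 3 the log2 fold changes were 0.95 for Aqp1, 0.77 for Igfbp6 and 0.27 for Lum, with the same values when the other Lipo and Saline libraries were fitted alone, and 1.09, 0.80 and 0.36 with the replicate block added. Without Lipo 1 as well, Aqp1 was at 0.72 and Igfbp6 at 0.66, and with array weights at 0.24 and 0.34. With equal FPKM totals Col10a1 was at 0.046, Hif1a at 0.098 and Tgfb1 at 0.074. With the span trend removed Col10a1 was at 0.17, Sox9 at 0.14 and Tgfb1 at 0.015. Over the fits without 1 library, Col10a1 ranged from -0.47 to 0.19, Hif1a from -0.18 to 0.084, Tgfb1 from -0.25 to 0.033, Lgals1 from -0.12 to 1.24, Aqp1 from -1.61 to 0.95, Igfbp6 from -1.22 to 0.77 and Lum from -2.04 to 0.27. FPKM values keep no read depth, so no counting error could be given.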

Other observations

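Genes of the circadian clock and its outputs had 5 of 18 called lower in Lipo and 0 higher, with a median log2 fold change of 0.085, against 12.3% lower over all genes. The lower count was 5 without Saline 3, 3 without Lipo 1, and 2 without Saline 2, with equal FPKM totals and with the span trend removed. Bhlhe40, a repressor of clock genes that many signals induce, was at 17.54, 23.44 and 25.47 FPKM in Lipo and 51.04, 59.81 and 48.66 in Saline (log2 fold change -1.26), and Ciart, a repressor of the clock, at 4.11, 3.37 and 3.71 FPKM and 10.09, 9.88 and 7.89 (-1.21). The groups did not overlap in either gene. The time of day at which the cells were taken is not given in the sources used here, so its part was not tested.

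Antioxidant genes had 9 of 31 (29%) called lower and 2 (6.45%) higher, against 12.3% and 10.6% over all genes. With the span trend removed the counts were 6 and 1. Mt2A, a metallothionein that binds zinc and copper, was at 31.49, 113.57 and 101.71 FPKM in Lipo and 253.47, 401.78 and 308.50 in Saline (log2 fold change -2.13), without overlap. Among interferon response genes, 6 of 17 (35.3%) were called lower and 1 (5.88%) higher, against 12.3% and 10.6% over all genes. With the span trend removed 3 were lower, and 12 of the 17 are in the class of the shortest genes. Bst2, which tethers viruses to the membrane, was among those that fell (log2 fold change -1.67). Of 25 targets of p53 and inhibitors of cyclin-dependent kinases, 4 (16%) were called higher and 4 lower, near the 10.6% and 12.3% over all genes. Without Saline 3 the counts were 2 and 3, without Saline 2 they were 2 and 6, and without Lipo 2 they were 2 and 4. Cdkn2b, an inhibitor of the kinases that open the cell cycle, was at 4.91, 3.42 and 3.25 FPKM in Lipo and 1.21, 1.15 and 1.94 in Saline (log2 fold change 1.18).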
